A study of Homo sapiens with 6 samples.

Results

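The epidermal growth factor (EGF) receptor family was followed in Huh7-R cells, the sorafenib-resistant pool (labelled Huh7SR) derived from the human hepatocellular carcinoma cell line Huh7. RNA was sequenced from 3 samples treated with fostamatinib, an inhibitor of spleen tyrosine kinase, and from 3 samples treated with the vehicle DMSO. The study did not detect this kinase as protein in Huh7 cells. At a higher dose and a shorter time it reported less phosphorylation of EGFR, ERK and AKT with fostamatinib. The labels give 2 µM and 24 h for both groups, and all 6 samples carry the acquired resistance; the pool was grown in sorafenib, which the study's methods say was withdrawn some days before experiments. The genes were chosen by symbol: the receptors EGFR, ERBB2 and ERBB3, the ligands AREG, EREG, HBEGF, TGFA and BTC, and the negative regulators ERRFI1 and LRIG1. Of these 10 genes, 9 were found among the 16305 genes of the processed files, and TGFA was not analysed here.

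The receptors of this family are tyrosine kinases of the cell surface that dimerize when a ligand binds and pass the signal to the RAS-ERK and PI3K-AKT pathways. EGFR binds EGF, amphiregulin (AREG), epiregulin (EREG), heparin-binding EGF (HBEGF), TGF-alpha (TGFA) and betacellulin (BTC), whereas ERBB2 has no known ligand and ERBB3, which binds neuregulins, has little kinase activity of its own and is a strong docking site for PI3K in dimers with ERBB2. The ligands are made as membrane precursors that sheddases cut free. ERRFI1 (also called MIG6) binds and inhibits the receptors' kinase domains, LRIG1 promotes their breakdown, and transcription of several ligands and of ERRFI1 is known to follow ERK activity. In hepatocytes EGFR is abundant and is known for its role in liver regeneration.

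Of the 300-base windows at the starts of the genes, 5 (250 bases before to 50 after the start, RefSeq, GRCh38.p14) are printed because they cover a pair of falling ligands from one gene cluster, another falling ligand, a receptor that rose and the receptor that did not pass the test. Capitals mark matches on either strand to AP-1 (TGANTCA), CRE (TGACGTCA), ETS (CCGGAAG), GC box (GGGCGG), xenobiotic response element (TNGCGTG) or TATA box (TATAAA) letters; the last 2 GC boxes of HBEGF share a base and run together, and no other matches overlap in these windows.
AREG, chr4:74444886-74445185, + strand: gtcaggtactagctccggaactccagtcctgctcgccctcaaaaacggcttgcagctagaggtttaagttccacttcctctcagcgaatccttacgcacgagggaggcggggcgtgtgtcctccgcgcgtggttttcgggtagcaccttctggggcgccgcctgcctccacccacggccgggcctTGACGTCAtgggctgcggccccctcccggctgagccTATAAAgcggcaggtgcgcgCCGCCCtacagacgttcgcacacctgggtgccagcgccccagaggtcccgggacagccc
EREG, chr4:74364895-74365194, + strand: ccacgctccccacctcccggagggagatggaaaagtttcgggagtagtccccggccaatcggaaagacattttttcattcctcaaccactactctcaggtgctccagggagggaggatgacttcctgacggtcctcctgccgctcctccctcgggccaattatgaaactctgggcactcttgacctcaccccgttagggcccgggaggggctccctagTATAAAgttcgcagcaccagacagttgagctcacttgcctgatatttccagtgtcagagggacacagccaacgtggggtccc
HBEGF, chr5:140346554-140346853, - strand: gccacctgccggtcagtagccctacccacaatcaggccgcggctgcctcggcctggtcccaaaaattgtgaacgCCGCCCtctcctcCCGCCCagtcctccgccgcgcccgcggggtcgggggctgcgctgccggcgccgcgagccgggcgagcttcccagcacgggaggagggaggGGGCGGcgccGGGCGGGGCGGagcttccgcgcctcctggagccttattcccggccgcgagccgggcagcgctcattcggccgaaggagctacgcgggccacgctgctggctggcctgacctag
ERBB2, chr17:39687844-39688143, + strand: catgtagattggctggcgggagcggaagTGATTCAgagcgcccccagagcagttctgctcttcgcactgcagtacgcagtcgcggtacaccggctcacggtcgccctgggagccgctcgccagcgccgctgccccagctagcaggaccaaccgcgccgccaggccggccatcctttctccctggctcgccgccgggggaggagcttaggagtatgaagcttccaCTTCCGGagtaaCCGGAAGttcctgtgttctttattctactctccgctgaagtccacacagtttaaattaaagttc
EGFR, chr7:55018767-55019066, + strand: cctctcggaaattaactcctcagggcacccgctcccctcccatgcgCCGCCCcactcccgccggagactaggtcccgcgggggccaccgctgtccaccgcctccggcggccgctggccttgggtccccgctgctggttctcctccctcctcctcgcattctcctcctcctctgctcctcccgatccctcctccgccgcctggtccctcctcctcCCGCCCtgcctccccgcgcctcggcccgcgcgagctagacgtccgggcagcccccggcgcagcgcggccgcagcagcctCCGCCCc

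A window was found for 8 of the 9 genes, 12 windows in all, and ERBB3 had none in the table. AREG and EREG each hold a TATA box close to the start, at positions -29 and -32, a motif found in 11.6% of 34796 windows of all genes and in 6.66% of the 15156 windows of measured genes. The shares that follow are given in the same order, over all windows and over those of measured genes. The AREG window also holds a CRE at position -65 (1.84% and 2.66%) and a GC box at -9. The HBEGF window has 5 GC boxes and the EGFR window printed has 3 (44.9% and 64.4%), with no TATA box in either. EGFR has a second window, not printed, which holds TATA boxes at -146 and -36 and AP-1 matches at -232 and -136 but no GC box, so that the kind of start depends on the window taken. The ERBB2 window holds 2 ETS matches at positions -26 and -14 (10.2% and 16.2%) and an AP-1 match at -222 (7.73% and 5.42%). PGAP3 overlaps ERBB2 on the opposite strand, so letters of this window may belong to PGAP3 as well. Which start of ERBB2 these cells used was not measured, and it may lie outside this window. ERRFI1, BTC and the first window of LRIG1 hold GC boxes but none of the other motifs searched, and no window of any of the 8 genes holds the xenobiotic response element letters (5.49% and 6.86%). The printed windows of HBEGF and EGFR were 75.0% and 75.3% G or C and those of AREG and EREG 66.3% and 57.7%, against a median of 58.7% over all windows. Such matches are a description of the letters; binding was not measured here.

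The processed values are log2 CPM, that is, read counts relative to a library size scaled by the TMM method, with 0.5 added to each count. Reads on the listed genes numbered 13303451 to 15272737 per sample. Across all genes, 47.8% were called changed (limma, adjusted p-value under 0.05), 23.3% higher and 24.5% lower after fostamatinib, so a call alone does not set a gene apart here. The cells carried hepatocyte markers: all 10 listed genes were measured, with a summed level of 5073 to 5416 CPM in the DMSO samples and 6881 to 7294 CPM after fostamatinib, and each of the 10 rose. The levels were very uneven: in the DMSO samples AFP alone was at 1863 to 2009 CPM, and APOA1 was at 1.44 to 1.55 CPM. Of 4 leukocyte markers, PTPRC, CD3E and CD68 were not among the listed genes and CD14 was at 0.151 to 0.491 CPM. Of 5 fibroblast or stellate markers 4 were measured, at a summed 296 to 305 CPM with DMSO and 307 to 310 CPM with fostamatinib, with COL1A2 and PDGFRB higher, LUM lower and DCN not among the listed genes. Of 3 endothelial markers only PECAM1 was listed, at 6.10 to 6.93 CPM with DMSO and 8.72 to 9.89 CPM with fostamatinib, and was called higher. The part of these markers in the changes below was not tested. The drug was applied in triplicate, but separate cultures are not stated, so the p-values measure only the spread between these samples. All 9 genes passed the authors' filter on low counts in both groups.

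Of the 9 genes, 7 were called changed in Huh7-R cells after fostamatinib, 2 higher and 5 lower, against 47.8% of all genes. The rises were those of the receptors ERBB3 and ERBB2, and the falls those of the ligands EREG, HBEGF and AREG and the negative regulators ERRFI1 and LRIG1. EGFR itself and BTC did not pass the test. In the same 7 genes the 3 samples of one group did not overlap with the 3 of the other, which held for 54.1% of all genes. More than 2-fold was reached by ERBB3 alone of the 9 genes, against 7.13% of all genes called with a change of this size and 3.85% called higher by as much.

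**Figure D1:**
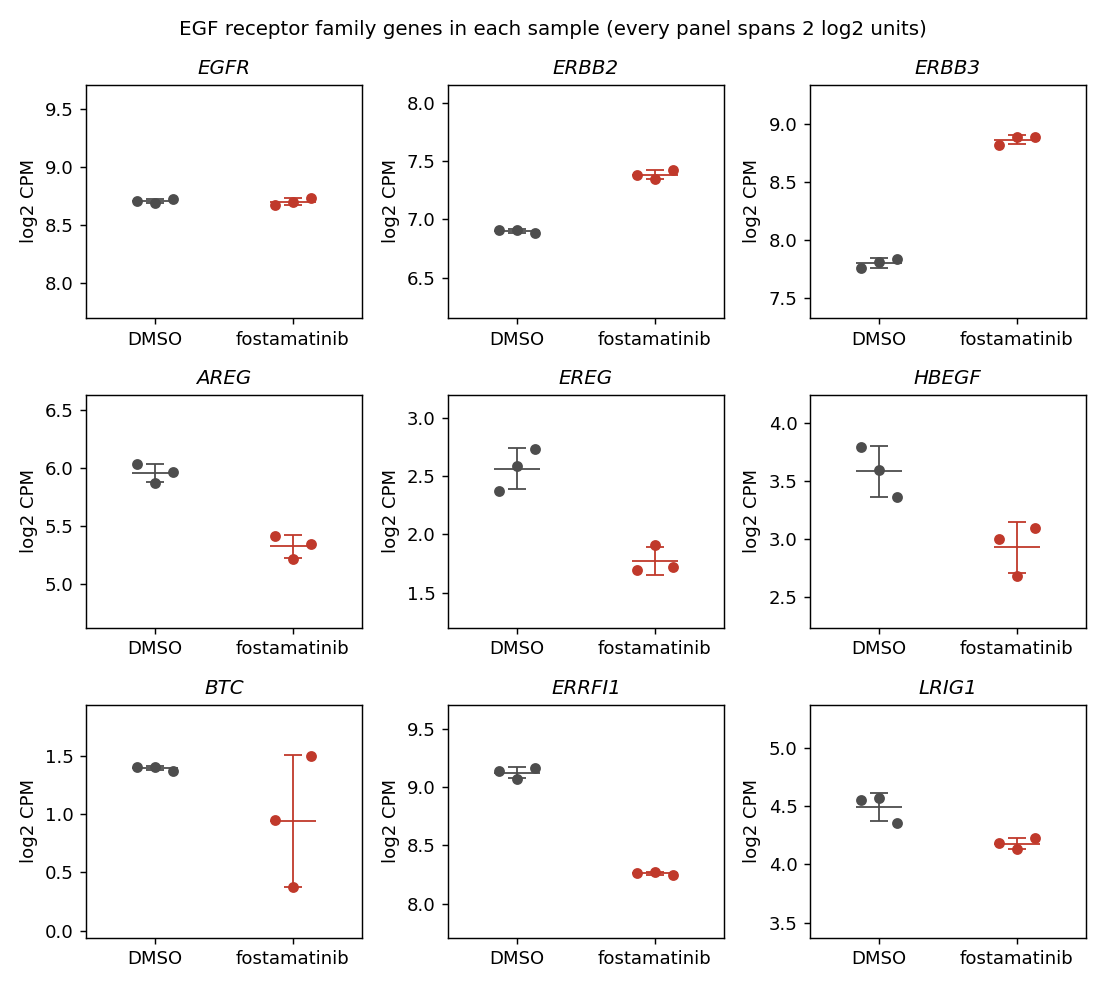
Level of each of the 9 genes in every sample, in log2 CPM (y axis, each panel spanning 2 units), for the DMSO (grey) and fostamatinib (red) groups; points are samples, the horizontal line is the group mean and the bars are SD (n = 3). ERBB2 and ERBB3 lie higher and AREG, EREG, HBEGF, ERRFI1 and LRIG1 lower after fostamatinib without overlap, whereas the groups overlap for EGFR and BTC.

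ERBB3 (ENSG00000065361; chromosome 12, 56470583 to 56497289, + strand, coordinates of GRCh37), the receptor that recruits PI3K, showed the largest change of the 9 genes. It stood at 217, 225 and 229 CPM in the DMSO samples and at 450, 473 and 472 CPM in the fostamatinib samples. Every treated sample was thus far above every control, and replicates of a group lay close together. The mean rose from 7.80 ± 0.040 to 8.86 ± 0.040 log2 CPM (SD, n = 3), a log2 fold change (with its standard error, SE) of 1.06 (SE 0.038, limma adjusted p = 1.57e-22), or 2.08-fold. Only 4.41% of all genes rose more. In bulk RNA, more cells of a type and more RNA per cell cannot be told apart. An overlapping gene model on the same strand, ENSG00000257411, was not among the listed genes.

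ERBB2 (ENSG00000141736; chromosome 17, 37844167 to 37886679, + strand), the preferred partner of ERBB3, rose less. Its level was 120, 120 and 118 CPM with DMSO and 166, 163 and 172 CPM with fostamatinib. The groups were again well apart, with a log2 fold change of 0.48 (SE 0.043, limma adjusted p = 9.82e-12), or 1.40-fold. PGAP3 and MIEN1, which lie on the opposite strand and overlap ERBB2 in the annotation, were also higher after fostamatinib, with log2 fold changes of 0.84 (adjusted p = 2.05e-05, limma) and 0.65 (adjusted p = 1.11e-08). Their means were 60.3 and 284.3 reads with DMSO, against 1748.3 reads of ERBB2. The libraries were directional, but the strand setting of the counting is not given in the sources used here, so reads of the overlapping parts may not have been told apart.

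EGFR (ENSG00000146648; chromosome 7, 55086710 to 55279321, + strand) was expressed at 418, 414 and 422 CPM in the controls and at 409, 416 and 425 CPM after treatment. The 2 groups overlapped and their means were almost equal. The log2 fold change was -0.0056 with a 95% interval of -0.077 to 0.066 (adjusted p = 0.912, limma), which leaves room for a change of a few percent in either direction and not for one like those of ERBB2 or ERBB3. The antisense RNA EGFR-AS1, which lies within the gene on the opposite strand, had a mean of 110.7 reads with DMSO and 161.7 reads with fostamatinib and was called higher, with a log2 fold change of 0.64 (adjusted p = 1.31e-05, limma). Reads of EGFR-AS1 could likewise not be told apart from those of EGFR without a known strand setting, although the EGFR means of 6119.7 and 5728.7 reads were far larger.

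Within each sample, the log2 ratio of ERBB3 to EGFR moved by 1.06 between the groups and that of ERBB2 to EGFR by 0.49 (p = 0.1 for each by a two-sided exact permutation test, which cannot go lower with 3 against 3 samples). For both ratios the samples of the 2 groups did not overlap. In CPM per kb of exonic sequence, which makes different genes comparable, EGFR was the most abundant receptor in every DMSO sample, at 25.97 to 26.5, ahead of ERBB3 at 18.5 to 19.6 and ERBB2 at 11.4 to 11.7. After fostamatinib ERBB3 came first, at 38.5 to 40.4, followed by EGFR at 25.7 to 26.7 and ERBB2 at 15.8 to 16.6. No neighbours in either order overlapped. The share of ERBB3 in the summed level of the 3 receptors went from 33.5% ± 0.61 to 48.4% ± 0.61 (SD, n = 3) and that of EGFR from 46.1% ± 0.41 to 31.9% ± 0.15, while the sum itself went from 56.9 ± 0.57 to 82.0 ± 1.7 CPM per kb. ERBB2 kept about the same share, at 20.3% ± 0.38 and 19.7% ± 0.46. With the length of the longest transcript in place of all exons, the order was the same, with ERBB3 at 35.7 and EGFR at 42.2 CPM per kb in the DMSO group and at 74.3 and 42.1 in the fostamatinib group.

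**Figure D2:**
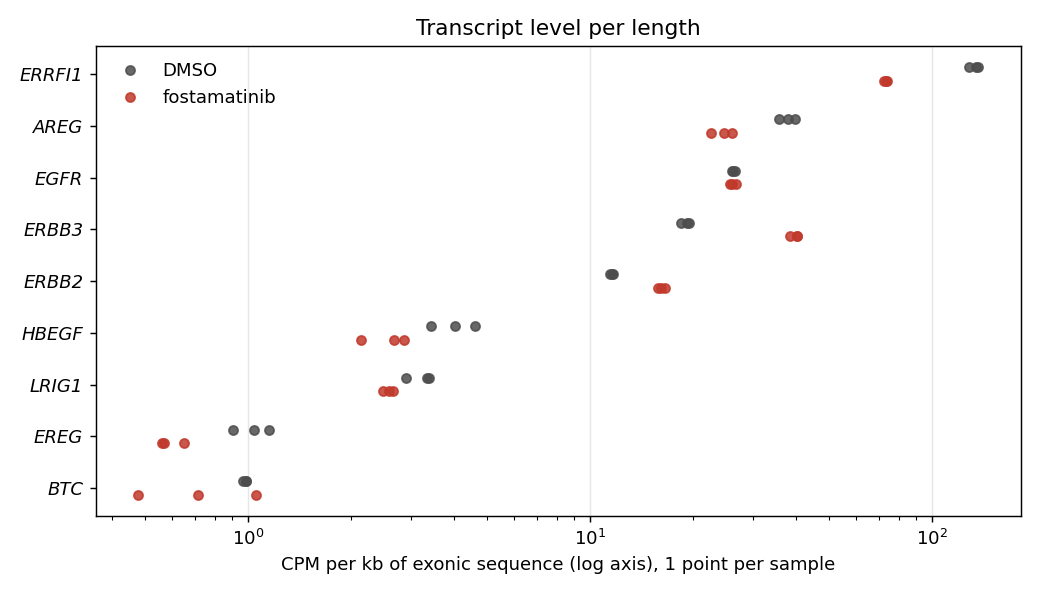
Level of the 9 genes in CPM per kb of exonic sequence (x axis, log scale), 1 point per sample, DMSO in grey and fostamatinib in red, ordered by the DMSO mean. The ERBB3 points pass from below those of EGFR (18.5 to 19.6 against 25.97 to 26.5) to above them (38.5 to 40.4 against 25.7 to 26.7).

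The ligand AREG (ENSG00000109321; chromosome 4, 75310853 to 75320722, + strand) fell in Huh7-R cells after fostamatinib. It was at 65.5, 58.6 and 62.4 CPM in the DMSO samples and at 42.7, 37.2 and 40.6 CPM in the treated samples. The lowest control lay above the highest treated sample, and the log2 fold change was -0.63 (SE 0.062, limma adjusted p = 1.04e-10), which is 64.6% of the DMSO level. AREG has a near-identical copy in GRCh37, AREGB, further along chromosome 4 from 75480629 to 75490486, and 95.8% of the 1185 windows of 50 bases in the longest AREG transcript occur in it without a mismatch. AREGB was not among the listed genes, and how reads that match both copies were counted is not given in the sources used here. The level of AREG is therefore uncertain, and its fold change rests on the same treatment of such reads in all 6 samples.

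EREG (ENSG00000124882; chromosome 4, 75230862 to 75254466, + strand), which like AREG has a TATA box in the window printed above, was at a much lower level. Its 71, 91 and 98 reads in the DMSO samples went to 44, 53 and 43 reads in the fostamatinib samples. On the scale that corrects for library size these were 5.15, 5.96 and 6.59 CPM against 3.20, 3.72 and 3.24 CPM, with no overlap. The log2 fold change of -0.79 had a larger SE of 0.16 (adjusted p = 1.23e-04, limma).

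HBEGF (ENSG00000113070; chromosome 5, 139712428 to 139726188, - strand), a ligand whose printed window is GC-rich like that of EGFR, had 190, 184 and 152 reads in the controls and 110, 91 and 113 reads after treatment. In CPM these were 13.8, 12.1 and 10.2 against 7.996, 6.38 and 8.53. The controls were more spread than for AREG and yet stayed above all treated samples, with a log2 fold change of -0.65 (SE 0.13, limma adjusted p = 4.78e-05).

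BTC (ENSG00000174808; chromosome 4, 75669969 to 75719733, - strand) had the fewest reads, 36, 40 and 38 with DMSO and 26, 18 and 37 with fostamatinib. In CPM, fostamatinib replicate 3 lay above all controls, at 2.79 against 2.56 to 2.62, and the other treated samples lay below them, at 1.89 and 1.26. Its log2 fold change of -0.45 (95% interval -0.96 to 0.049) did not pass the test (adjusted p = 0.132, limma). The call depended on single samples: without fostamatinib replicate 3 the log2 fold change was -0.73 (adjusted p = 0.0232, limma), and without fostamatinib replicate 2 it was -0.17 (adjusted p = 0.605, limma).

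The fold changes of AREG, EREG and HBEGF had overlapping 95% intervals, from -0.76 to -0.51, from -1.12 to -0.46 and from -0.91 to -0.40, and the shares of AREG and HBEGF among the ligand transcripts moved by less than their SD. Per kb, AREG made up 86.3% ± 0.92 of the summed level of the 4 ligands with DMSO and 86.3% ± 1.4 with fostamatinib (SD, n = 3), HBEGF 9.15% ± 1.1 and 8.98% ± 0.76, and EREG and BTC the small remainder. These shares carry the uncertainty of the AREG level. The sum fell from 43.9 ± 2.3 to 28.3 ± 2.1 CPM per kb. Relative to EGFR in the same sample, the summed CPM of the 4 ligands was lower by -0.63 on the log2 scale after treatment (two-sided exact permutation p = 0.1), with no overlap between the groups. In the order of levels per kb, EREG (0.902 to 1.15) and BTC (0.964 to 0.988) could not be separated in the DMSO samples, and HBEGF (2.14 to 2.85) and LRIG1 (2.48 to 2.65) could not in the treated ones. AREG (22.6 to 25.99) and EGFR (25.7 to 26.7) also overlapped after treatment, as did EREG (0.560 to 0.651) and BTC (0.476 to 1.05). These overlaps are for the length of all exons. With the longest transcript as the length, the DMSO means were 1.28 for EREG and 0.979 for BTC. The fostamatinib means were then 32.5 for AREG and 42.1 for EGFR.

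EREG, AREG and BTC lie in one stretch of 489 kb on chromosome 4 (75230862 to 75719733), in which no other gene was measured. All 3 had lower means after fostamatinib, and 2 of the 3 passed the test, against 47.8% of all genes.

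ERRFI1 (ENSG00000116285; chromosome 1, 8064464 to 8086369, - strand), the inhibitor of the receptor kinases, was the most abundant of the 9 genes per kb and had the strongest fall in proportion to its error. It was at 563, 536 and 572 CPM in the DMSO samples and at 306, 309 and 303 CPM in the fostamatinib samples. Treated samples differed from one another by a few CPM only and all lay far below the controls. The log2 fold change was -0.86 (SE 0.036, limma adjusted p = 1.50e-20), or 54.9% of the DMSO level, and 5.46% of all genes fell more. In CPM per kb it went from 133.4 ± 4.5 to 73.3 ± 0.72 (SD, n = 3), and it stayed the most abundant of the 9 genes in both groups.

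LRIG1 (ENSG00000144749; chromosome 3, 66429221 to 66551687, - strand), a membrane protein that lowers receptor levels, changed least of the genes called. Its 23.4, 23.8 and 20.5 CPM in the controls were followed by 18.2, 17.5 and 18.6 CPM after treatment. The groups did not overlap, but the gap between the lowest control and the highest treated sample was small. The log2 fold change was -0.31 (SE 0.083, limma adjusted p = 0.00187), smaller than the median absolute value of 0.41 among all genes called. SLC25A26, which overlaps LRIG1 on the opposite strand, was not called (log2 fold change -0.11, limma adjusted p = 0.531). Relative to EGFR in the same sample, ERRFI1 moved by -0.86 and LRIG1 by -0.31 on the log2 scale (two-sided exact permutation p = 0.1 for each).

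**Figure D3:**
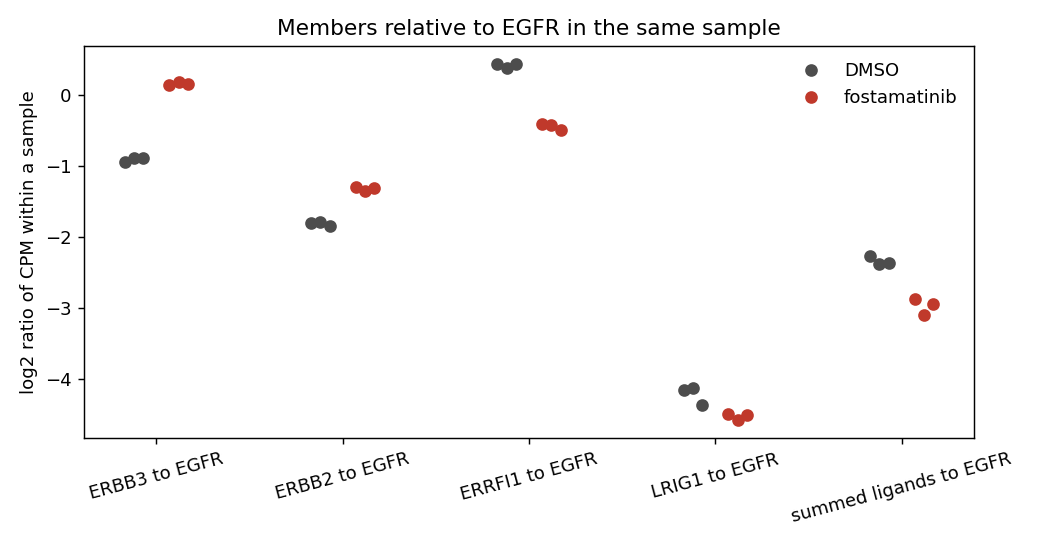
Log2 ratio of CPM to that of EGFR in the same sample (y axis, not corrected for length, so that only differences between groups can be read) for ERBB3, ERBB2, ERRFI1, LRIG1 and the 4 ligands summed; 1 point per sample, DMSO in grey and fostamatinib in red. ERBB3 and ERBB2 moved up by 1.06 and 0.49, and ERRFI1, LRIG1 and the ligands moved by -0.86, -0.31 and -0.63.

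Of the other ligands and receptors of the family, 4 of 7 listed genes were measured, with 1 higher and 1 lower (50% called, near the 47.8% of all genes). EGF, the founding ligand, went against the ligands above: its 177, 206 and 198 reads with DMSO became 341, 335 and 297 reads with fostamatinib, a log2 fold change of 0.83 (SE 0.085, limma adjusted p = 3.22e-10). NRG3, a neuregulin that binds ERBB4, fell from 51, 47 and 49 reads to 29, 25 and 31 reads, a log2 fold change of -0.70 (SE 0.21, limma adjusted p = 0.00606). NRG1, a ligand of ERBB3, had a mean of 16.7 reads with DMSO and 12.7 with fostamatinib (adjusted p = 0.448), and ERBB4 had 1 to 5 reads per DMSO sample and 4 to 7 per treated sample, passing the filter through the treated group (log2 fold change 1.23, SE 0.64, limma adjusted p = 0.116). With EGF counted among the ligands, its share per kb went from 3.81% ± 0.28 to 9.85% ± 0.74 (SD, n = 3) and the sum of the 5 ligands from 45.6 ± 2.3 to 31.4 ± 2.2 CPM per kb.

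**Figure D4:**
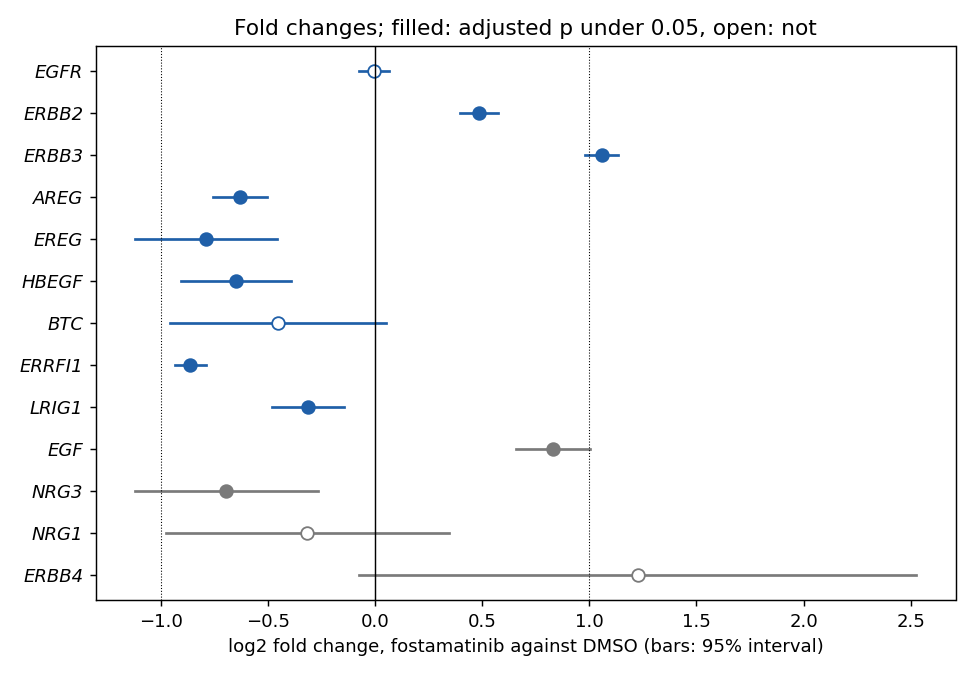
Log2 fold change of the 9 genes (blue) and of EGF, NRG3, NRG1 and ERBB4 (grey) after fostamatinib, with the 95% interval from limma; filled points passed an adjusted p-value of 0.05 and dotted lines mark 2-fold. ERBB3 lies at 1.06 and EGFR at -0.0056, the ligands AREG, EREG and HBEGF between -0.79 and -0.63, and EGF at 0.83.

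Of 7 genes measured that act on ligand release, 5 fell and 0 rose (71.4% called, against 47.8% of all genes), and the falls include TIMP3, which works against release. The list had a median log2 fold change of -0.22 against 0.0015 over all genes. ADAM17, the main sheddase of AREG, EREG and HBEGF, fell by 0.57 on the log2 scale (SE 0.055, limma adjusted p = 7.83e-11). RHBDF2, the iRhom that carries ADAM17 to the surface, fell by 0.53 (SE 0.063, limma adjusted p = 8.93e-09). TIMP3, an inhibitor of ADAM17, fell by 0.47 (SE 0.10, limma adjusted p = 2.96e-04).

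Of 15 measured genes listed as other attenuators of the receptors, 8 were lower and 3 higher, with a median log2 fold change of -0.16. The 73.3% called stands against 47.8% of all genes, and 24.5% of all genes were lower. RNF41, the ubiquitin ligase of ERBB3, fell by 0.48 on the log2 scale (SE 0.053, limma adjusted p = 1.35e-09). SOCS4, an adaptor for receptor degradation, fell by 0.48 (adjusted p = 9.71e-08), and PTPN2, a tyrosine phosphatase, fell by 0.42 (adjusted p = 2.92e-07, limma).

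Adaptors and effectors bound by active receptors showed no common direction. Of 18 measured, 5 were higher and 3 lower (44.4% called, near the 47.8% of all genes), with a median log2 fold change of 0.044. SOS1, the exchange factor that activates RAS, rose by 0.82 (SE 0.045, limma adjusted p = 2.12e-17) and PIK3R3, a regulatory subunit of PI3K, by 0.80 (adjusted p = 7.41e-09), while PTPN11, the phosphatase SHP2, fell by 0.41 on the log2 scale (adjusted p = 2.01e-11). Without the mean-variance trend, or without DMSO replicate 1, 4 of the 18 passed the test in place of 8.

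Of 16 measured genes of endocytosis, recycling and lysosomal sorting, 6 were higher, 3 lower and 7 not called (56.2% called, near the 47.8% of all genes). Their log2 fold changes lay between -0.28 for STAM, which sorts ubiquitinated receptors, and 0.31 for SNX1, a sorting nexin (adjusted p = 1.66e-05 and 1.25e-06, limma). EHD1, a recycling protein, rose by 0.29 (adjusted p = 7.60e-06). Without the mean-variance trend, 5 of the 16 passed the test in place of 9.

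ERK-responsive genes, a list that earlier results of these data had already shown to fall, are given only for completeness. Of 15 measured, 13 were lower and 1 higher, with a median log2 fold change of -1.40 (93.3% called, against 47.8% of all genes), and nothing about the receptor family is read from this.

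**Figure D5:**
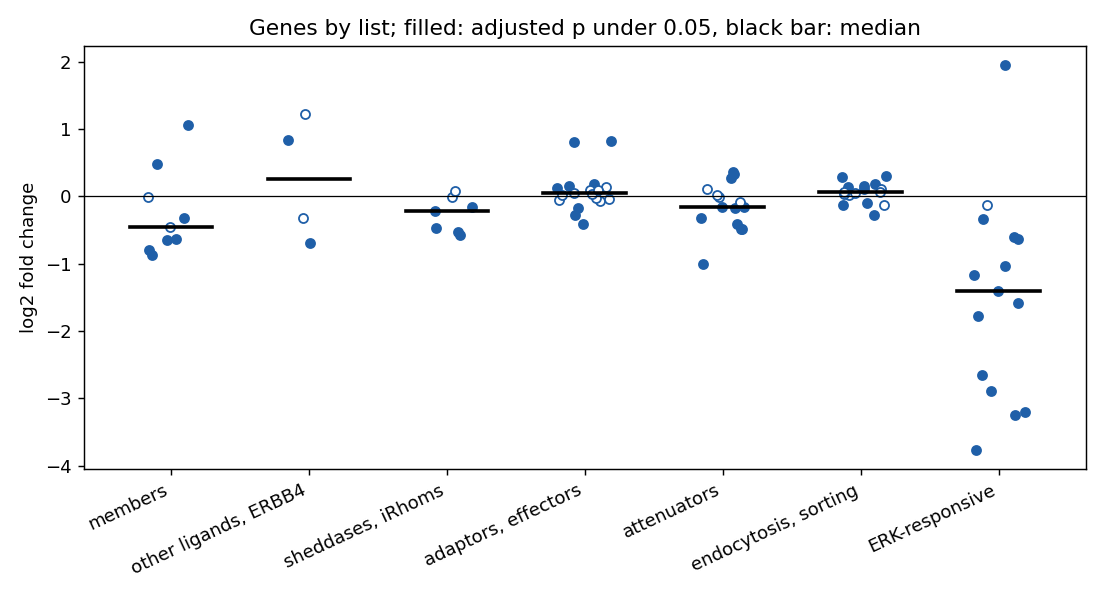
Log2 fold change after fostamatinib (y axis) of the 9 genes and of the measured genes of the lists described in the text; each point is a gene, filled where the adjusted p-value was under 0.05 and open otherwise, and the black bar is the median. The medians were -0.45 for the 9 genes, -0.22 for sheddases and iRhoms, 0.044 for adaptors, -0.16 for attenuators, 0.065 for endocytosis and -1.40 for ERK-responsive genes.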

How the data were processed

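RNA-seq values of 3 DMSO and 3 fostamatinib samples of Huh7-R cells were analysed. The authors used HISAT for mapping to hg19 and featureCounts for counting, with the GENCODE v.22 annotation, dropped a gene where most samples of both groups had under 5 reads, and scaled by TMM. Tool versions are not given in the sources used here. The deposited values are log2 CPM, 1 file per sample. Reads were recovered from them, with 100% of values within 0.05 of a whole number; reads on removed genes are not included in the depth. Any gene listed more than once was used once, which took the 16311 rows of each sample to 16305 genes, of which 1911 had no symbol.

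All genes were tested together for treatment in limma 3.58.1 (R 4.3.3; moderated with a trend of variance on mean level). A gene was called at a Benjamini-Hochberg adjusted p-value under 0.05. The test pools spread across genes, with a median of 33.9 degrees of freedom against 4 residual, so very small p-values rest on this pooling. The script was tested on simulated data. Ratios to EGFR were compared by exact permutation with scipy 1.17.1. Lengths and coordinates were taken from GRCh37 with GENCODE version 44 mapped to it, in which 98.7% of genes were found; hg19 is the same build. Promoter windows were taken from RefSeq, GRCh38.p14, and were not combined with those coordinates.

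Named were all 9 genes found, each measured gene of the list of other ligands and receptor, and from the other lists the 3 called genes of largest change with a mean of at least 50 reads in 1 group. Of the ERK-responsive genes only counts are given, and genes overlapping a member are named as well. The genes, lists and tests were chosen with earlier results of these data known. Pairs of replicates had a chi-square per degree of freedom of 1.65 to 3.74, where counting error alone gives about 1, and no library looked deposited more than once. Alternatives were limma-voom, no trend, RLE factors, library size alone, a pseudocount of 2, the replicate number as a block, a minimum of 10 reads in every sample, a 2-fold limit, and omission of each sample.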

Additional observations from a re-analysis of the deposited data

How the results depend on the processing

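The calls of the 9 genes held under most alternatives: 7 were called with limma-voom, without a trend, with RLE factors, with library size alone, with a pseudocount of 2 and with at least 10 reads in every sample, and 7 to 8 when each sample was left out in turn, BTC being the addition (-0.73 to -0.17). With a 2-fold limit 1 of the 9 genes and 1163 of all genes remained. The EGFR value stayed near 0 and changed sign when samples were left out (-0.020 to 0.0078). Without a trend, 4 adaptors and 5 endocytosis genes were called in place of 8 and 9; leaving out single samples gave 4 to 8 adaptors. The cause was not tested. A fit that added the replicate number as a block called 7977 genes in place of 7794, and 7 of the 9 genes. No pairing by number was seen: deviations of same-numbered samples correlated at 0.028, -0.019 and 0.013, and 2 of 6 samples correlated best with their own number. With 3 samples per group, this cannot exclude that the samples were paired. Replicates limit precision to 3 per group, and the few reads of BTC, NRG1 and ERBB4 limit their values most.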

Other observations

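Among the 10 measured genes nearest to ERBB3 on chromosome 12 (5 on each side), 5 were called higher and 3 lower, with log2 fold changes from -0.65 to 0.87, all below the 1.06 of ERBB3. Over all genes 23.3% were called higher and 24.5% lower, which is the background for this count and those that follow. Around ERBB2, 5 of the 10 nearest measured genes were higher and 1 lower, with a median of 0.16. The genes that were higher include PGAP3 and MIEN1, which overlap ERBB2 itself. Around EGFR, 1 was higher and 3 lower, with a median of -0.31. The gene that was higher is EGFR-AS1, which lies within EGFR, so its reads may not be separate. The 10 neighbours of ERRFI1 had a median of -0.12, against -0.86 for the gene itself, and those of HBEGF a median of 0.17, against -0.65. Near AREG, where EREG, BTC and genes of the CXC chemokine cluster are among the neighbours, 6 of 10 were lower and 1 higher, with a median of -0.62.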
